A study of Mus musculus with 16 samples.

Results

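Lamin A/C ChIP-seq peaks of adult cardiomyocytes were compared between mice with intact desmin (Des+/+) and mice without desmin (Des-/-), both after swimming exercise. The comparison rests on 1 peak list for each genotype. Peaks whose input height reached 10 reads were left out, as were peaks whose nearest gene was Gata4, Neil2 (the neighbour of Gata4), Mef2c or Tbx5. This kept 607 of 635 peaks in Des+/+ swim and 507 of 536 peaks in Des-/- swim, which are called members here. Together they are 1114 of the 56149 peaks in the 8 lists of the series, which also mapped histone H3 acetylated at lysine 27 (H3K27Ac) and cells of unexercised (basal) mice.

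Cardiomyocytes were isolated by enzymatic perfusion from hearts of mice aged 3 months. The 2 swim groups share age, exercise and isolation, and differ by the desmin genotype, which is wild type in Des+/+ and null in Des-/-. Each library came from chromatin pooled from several mice, so there was 1 library per group, no spread between mice could be measured, and no test of a difference between genotypes was possible. All intervals are 95% intervals that cover counting error only. The total reads of each library are not in the lists, so depth is seen only through peak heights. A height is the number of overlapping reads at a peak, and the lowest height kept in a lamin A/C list was 8 reads, for which an exact Poisson interval runs from 3.45 to 15.8 reads.

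Lamins A and C are intermediate filament proteins that line the inner face of the nuclear envelope. Chromatin that touches this lamina tends to be gene-poor, late-replicating and silent, and it lies in broad domains rather than at narrow sites. Desmin is the main intermediate filament of heart muscle, where it links the contractile apparatus to membranes and, through the LINC complex of nesprins and SUN proteins, to the nucleus. The study asked whether loss of desmin alters the contacts between lamin A/C and chromatin.

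The cell type was checked through the acetylation lists of the same swim groups. H3K27Ac promoter peaks were present at 8 of 8 cardiomyocyte marker genes in Des+/+ swim and at 4 of 8 in Des-/- swim (Myh6, Ryr2, Tnni3 and Tnnt2). They were present at 6 of 8 endothelial markers in each, and at 0 of 8 fibroblast and 0 of 8 leukocyte markers in either. The part of endothelial cells in the lamin A/C members was not tested.

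The sequences under the members show the kinds of site that the lists hold. The first kind is the exon of a strongly expressed heart gene. In the next 4 lines the deposited interval of a member is printed from mm10 (the plus strand, while each gene lies on the minus strand), with coding bases in capitals and intron bases in lower case. Myh6 encodes alpha-myosin heavy chain, Actc1 cardiac alpha-actin and Mb myoglobin, the oxygen store of muscle.
Myh6 exon, chr14:54946340-54946616, height 20 in Des+/+ swim and no Des-/- member: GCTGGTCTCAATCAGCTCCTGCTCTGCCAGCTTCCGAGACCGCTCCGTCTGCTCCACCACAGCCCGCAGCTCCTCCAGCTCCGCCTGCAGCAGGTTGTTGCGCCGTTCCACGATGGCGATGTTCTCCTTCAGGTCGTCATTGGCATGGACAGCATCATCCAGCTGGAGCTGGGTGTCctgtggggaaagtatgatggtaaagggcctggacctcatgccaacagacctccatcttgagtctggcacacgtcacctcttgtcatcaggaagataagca
Actc1 exon, chr2:114048136-114048378, height 12 in Des+/+ swim and no Des-/- member: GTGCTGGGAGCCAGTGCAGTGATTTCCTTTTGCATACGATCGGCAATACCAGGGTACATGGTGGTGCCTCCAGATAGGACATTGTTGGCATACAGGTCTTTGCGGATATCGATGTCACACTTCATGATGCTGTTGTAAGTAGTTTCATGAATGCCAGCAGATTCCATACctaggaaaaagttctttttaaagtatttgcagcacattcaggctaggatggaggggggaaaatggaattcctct
Mb exon, chr15:77017591-77017852, height 16 in Des+/+ swim and no Des-/- member: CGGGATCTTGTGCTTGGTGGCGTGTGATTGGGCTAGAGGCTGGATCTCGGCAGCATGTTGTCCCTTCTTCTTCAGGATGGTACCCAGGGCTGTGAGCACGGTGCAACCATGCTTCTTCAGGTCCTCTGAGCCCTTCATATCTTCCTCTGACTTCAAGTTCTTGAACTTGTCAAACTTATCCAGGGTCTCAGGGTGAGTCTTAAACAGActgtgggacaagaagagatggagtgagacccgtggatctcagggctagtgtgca
Myh6 exon, chr14:54944320-54944519, height 8 in Des-/- swim, overlapping a Des+/+ member of height 14: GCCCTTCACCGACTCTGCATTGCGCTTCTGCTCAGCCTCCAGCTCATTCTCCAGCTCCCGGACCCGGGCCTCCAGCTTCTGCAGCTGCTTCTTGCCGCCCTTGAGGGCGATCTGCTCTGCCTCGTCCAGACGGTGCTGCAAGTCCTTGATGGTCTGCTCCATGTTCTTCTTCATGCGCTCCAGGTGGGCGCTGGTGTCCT
The Myh6 interval of height 20 held 177 coding bases of 277, and those of Actc1 and Mb held 169 of 243 and 208 of 262. The Des-/- interval of 200 bases lay wholly in coding sequence.

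The second kind of site is a processed pseudogene, an intronless copy of a messenger RNA inserted elsewhere in the genome. The next 2 lines give 100 bases of the coding exon of Eef1a1, a translation elongation factor gene, and the matching 100 bases of Gm13456. The nearest gene of this pseudogene by start is Lrp1b. Capitals would mark differences, and there are none, since 100 of 100 bases are identical.
Eef1a1 exon, chr9:78478737-78478836, plus strand, member of height 22 in Des+/+ swim: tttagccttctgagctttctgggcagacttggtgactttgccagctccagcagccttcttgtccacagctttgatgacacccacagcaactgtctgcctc
Gm13456, chr2:40557014-40557113, minus strand, member of height 25 in Des+/+ swim: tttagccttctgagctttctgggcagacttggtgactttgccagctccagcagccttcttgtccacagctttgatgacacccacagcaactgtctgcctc
A read of this sequence fits both places, and the aligner assigns it to 1 of them.

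The third kind of site is a copy within a family of tandemly repeated genes. The next 4 lines give 2 pairs of sites of 100 bases, each pair made of a Des+/+ member and of a Des-/- member that do not overlap, with capitals where the pair differs. Speer4 genes (named for spermatogenesis) and zinc finger (Zfp) genes are such families.
Speer4 cluster, Des+/+ swim, chr5:15022740-15022839, height 18: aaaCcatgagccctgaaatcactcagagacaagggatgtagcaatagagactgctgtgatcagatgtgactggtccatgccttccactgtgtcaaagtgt
Speer4 cluster, Des-/- swim, chr5:14970565-14970664, height 23: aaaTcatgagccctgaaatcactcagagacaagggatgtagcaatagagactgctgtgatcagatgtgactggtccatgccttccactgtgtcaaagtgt
Zfp984, Des+/+ swim, chr4:147755445-147755544, height 10: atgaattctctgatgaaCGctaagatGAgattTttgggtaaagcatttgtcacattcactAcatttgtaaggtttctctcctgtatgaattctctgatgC
Zfp534, Des-/- swim, chr4:147675089-147675188, height 16: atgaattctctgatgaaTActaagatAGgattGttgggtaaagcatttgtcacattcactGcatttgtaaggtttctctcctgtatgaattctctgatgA
The Speer4 pair lay 52.2 kb apart and was identical at 99 of 100 bases. The Zfp pair lay 80.4 kb apart and was identical at 93 of 100 bases. Members of the 2 lists without overlap can thus hold nearly the same sequence at different places.

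Members were low in both lists. The median height was 9 reads in each, and 43.8% of Des+/+ members and 49.7% of Des-/- members stood at the minimum of 8 reads. Heights of 20 reads or more were reached by 31 Des+/+ members and 18 Des-/- members. The median input height under the members was 2 reads in each list. At the input limit, the 3 Des+/+ members with an input of 9 reads had heights of 20 to 21, and the 2 peaks just outside it, with an input of 10, had heights of 22 and 23. In Des-/- swim the 8 members with an input of 9 had heights of 20 to 23, and the 5 peaks with an input of 10 had heights of 22 to 25.

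Few members lay at the same place in both lists. There were 34 pairs that overlapped by at least 1 bp. Without a partner were 573 Des+/+ members, which is 94.4% of the list (92.3 to 96.0), and 473 Des-/- members, which is 93.3% (90.8 to 95.2). Of the Des+/+ members without a partner, 54.3% (50.2 to 58.3) lay within 1 Mb of a Des-/- member. In the opposite direction this share was 67.4% (63.1 to 71.5). Some members without a partner had a near-copy in the other list: for 15.4% (12.6 to 18.5) of those in Des+/+ and 14.6% (11.7 to 18.1) of those in Des-/-, the 100 bases around the summit had a match of at least 90% identity inside a member of the other list. Counting only those with at most 1000 matches in the genome, the shares were 4.71% and 5.50%. A near-copy in another member of the own list was about as frequent, at 15.2% (12.5 to 18.4) and 11.2% (8.67 to 14.4).

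Shared members were taller than the rest. Their median height was 15 reads in Des+/+ and 13.5 in Des-/-, against 9 and 8 for members without a partner. Height also decides whether a peak is called at all, and its part in the overlap was not tested. Of the 34 pairs, 20 were higher in Des+/+, 11 were higher in Des-/- and 3 were equal. The highest pairs were a pair of sites in Def8, which encodes a protein linked to lysosome positioning, with a height of 69 in both lists at chr8:123433934-123434278 and heights of 73 (Des+/+) and 67 (Des-/-) at chr8:123425723-123426066 (Des+/+ intervals). Each had an input height of 1 and 167 matches in the genome. Next came a site near Zfp981 (45 in Des+/+ and 43 in Des-/-) and a site near F11r (24 in each), the gene of a junctional adhesion molecule. Near 4930517M08Rik the heights were 38 in Des+/+ and 20 in Des-/-. Over Malat1, an abundant nuclear noncoding RNA, they were 25 and 15. Pairs near Speer4e, Speer4c and Gm17019 had heights of 23, 19 and 17 in Des+/+ and of 20, 23 and 20 in Des-/-. At an exon of Fabp4, a fatty acid binding protein of capillaries and fat, the heights were 15 and 16. In this order the first 4 pairs differed by at most 6 reads between genotypes, and the next, near 4930517M08Rik, differed by 18. Ranking by the lower height favours pairs of like height, so it says little about agreement between the lists.

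Exons of protein-coding genes held more Des+/+ than Des-/- members. By GENCODE gene models, 97 Des+/+ members (16%, 13.3 to 19.1) overlapped such an exon, over 78 genes, against 26 Des-/- members (5.13%, 3.52 to 7.41), over 23 genes. The difference was -10.9 percentage points (-14.4 to -7.32) for Des-/- minus Des+/+. In 7 genes both lists had an exon member, among them Eef1a1, Fabp4, Myh6, Sparc, Tmsb4x and Zfp534. The summit lay inside the exon in 87 of the 97 Des+/+ members and in 21 of the 26 Des-/- members. Among exon members whose sequence matched the genome only once, 44 were in Des+/+ (7.25% of the list) and 9 in Des-/- (1.78%).

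Genes of contraction were among those with exon members in Des+/+ swim. With a member at a coding exon in Des+/+ swim were Myh6 and Myh7 (alpha- and beta-myosin heavy chain), Actc1, Tnnt2 (troponin T) and Tpm1 (tropomyosin). So were Myl3 (a myosin light chain), Lmod2 (leiomodin, which acts at the pointed ends of thin filaments) and Myoz2 (a Z-disc protein). Over Myh6 alone, 9 Des+/+ members lay on 9 of its 39 exons, with heights of 8 to 21 and input heights of 1 to 5. Des-/- swim had 1 member there, of height 8. Over Actc1, 4 members lay on 4 of its 7 exons with heights of 10, 11, 12 and 12. Over Myh7 a member reached 18. The heights over Tnnt2, Myl3 and Tpm1 were 12, 11 and 10, and over Lmod2 and Myoz2 they were 8. Des-/- swim had no member at any of these genes but Myh6. Over all 78 genes with a Des+/+ exon member, only 7 also had an exon member in Des-/- swim. By nearest gene, 14 Des+/+ members (2.31%, 1.38 to 3.83) and 1 Des-/- member (0.197%, 0.0348 to 1.11) belonged to the contraction list, and 7 of its 40 genes had a member in either list. In basal mice the order was the other way. The contraction list then had 0 of 176 Des+/+ members and 6 of 785 Des-/- members, the latter nearest to 6 genes. The Myh6 and Myh7 locus held 1 Des+/+ basal and 4 Des-/- basal members.

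Genes of calcium handling and energy supply had exon members in Des+/+ swim as well. Atp2a2, the calcium pump of the sarcoplasmic reticulum, and Pln (phospholamban), its regulator, each had an exon member in Des+/+, of heights 12 and 10. Mb had 2, of heights 29 and 16. The taller one was overlapped by a peak in Des-/- basal mice and by none in Des+/+ basal mice. Atp5b (ATP synthase), Slc25a4 (the ADP/ATP carrier), Cox4i1 (a cytochrome c oxidase subunit) and Vdac1 (the outer membrane channel) had 1 each, of heights 12, 10, 10 and 9. Des-/- swim had none at these 7 genes, and exon members in both lists were few over all genes as well (7 of 78). A site absent from Des-/- swim means a height below the minimum of 8 reads or a failed call there, not the absence of reads.

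**Figure D1:**
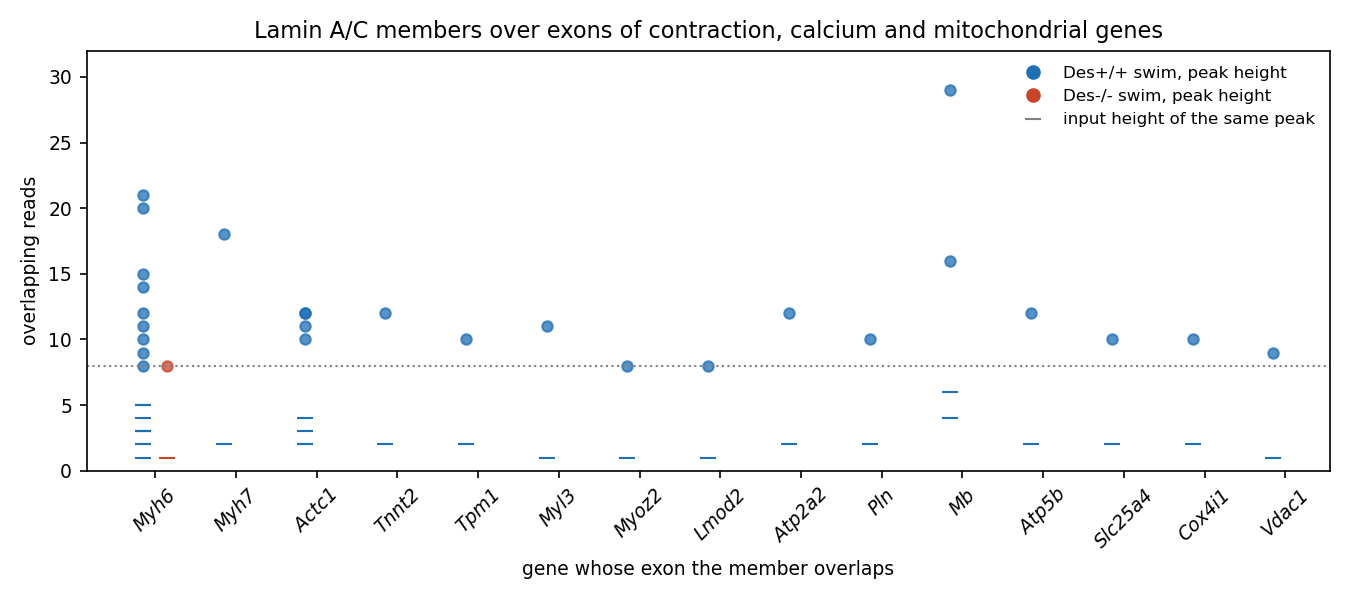
Peak heights (circles, overlapping reads) and input heights (dashes) of every member over an exon of the contraction, calcium handling and mitochondrial genes, with 1 column per gene, Des+/+ swim in blue and Des-/- swim in red, and the minimum height of 8 reads dotted. The Des+/+ heights run from 8 to 29 over 15 genes, and Des-/- swim has 1 member, over Myh6 at 8.

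Exon members were not limited to heart-specific genes. Those seen in Des+/+ swim include Eef1a1 (2 members, 14 and 22), Eef2 (2, of 10 and 11), both elongation factors, Actb (2, of 9 and 12), Fth1 (ferritin heavy chain, 2, of 8 and 9), Lpl (lipoprotein lipase, 2, of 11 and 12), Tmsb4x (18), Hba-a2 (a haemoglobin chain, 11), Bsg (10), Cd36 (a fatty acid transporter, 9) and Dcn (decorin, a fibroblast matrix protein, 9). Of these, Tmsb4x had a height of 9 in Des-/- swim, and Eef1a1 had 8 and 14. Dcn is among the 8 fibroblast markers, and by nearest gene the other fibroblast markers had no member in either list. No leukocyte or endothelial marker was the nearest gene of a member. Some exon members lay in repeated gene families, such as Speer4c in Des+/+ and Gm21083 and Vmn2r32 in Des-/-.

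Processed pseudogenes followed the exons. They carried 61 Des+/+ members (10.0%, 7.90 to 12.7) and 9 Des-/- members (1.78%, 0.937 to 3.34), a difference of -8.27 points (-11.1 to -5.62). Of the 71 Des+/+ members over any pseudogene, 64 had a summit sequence that matched a protein-coding transcript, and for 30 of these the best match was a ribosomal protein gene. Pseudogene members of height 15 or more with a named parent gene lay over copies of Eef1a1 (Gm13456, heights 35 and 25), Tpt1 (Tpt1-ps3, 22), Rpl37 (Gm4468, 20), Rpl7a (Gm5845, 17), Rps3a1 (Rps3a3, 17), Rpl31 (Rpl31-ps9, 16), Rps9 (Gm5905, 15) and Rpl36a (Rpl36a-ps2, 15). Copies of Gapdh, Rps24, Rpl11, Ppia and Hspa8 had lower members. In Des-/- swim 10 of 15 pseudogene members matched a coding transcript, 5 of them of ribosomal protein genes, and the tallest was 18. The pseudogenes Rpl36a-ps2 and Gm6341 (a copy of Rpl27) had a member in both lists.

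Exons and processed pseudogenes together held 158 Des+/+ members (26.0%, 22.7 to 29.7) and 35 Des-/- members (6.90%, 5.01 to 9.45). In basal mice the same count was 13 of 176 in Des+/+ (7.39%, 4.37 to 12.2) and 85 of 785 in Des-/- (10.8%, 8.84 to 13.2). Des+/+ swim thus stood above the other 3 lists, whose intervals overlap. The difference between the swim lists was -19.1 points (-23.2 to -14.9), and among members with 1 match in the genome it was -20.7 points (-29.2 to -11.2). The rest of the members numbered 449 in Des+/+ swim and 472 in Des-/- swim, so without these sites the Des+/+ list was no longer the longer one. The class was chosen after seeing the data, and leaving it out removes more Des+/+ members by construction.

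**Figure D2:**
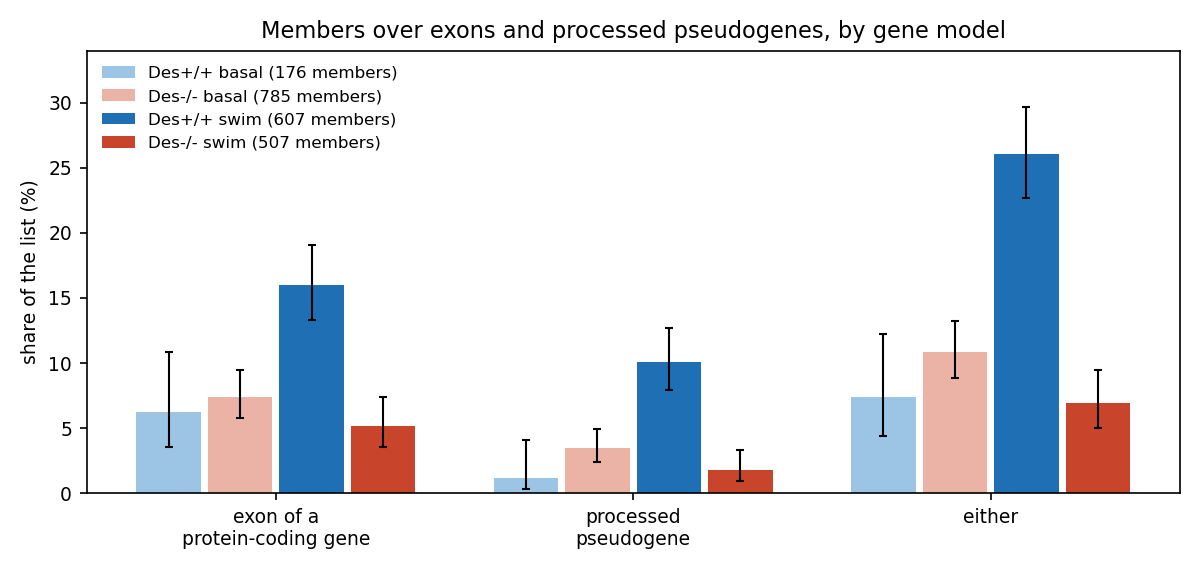
Share of each lamin A/C list (percent of members, bars with 95% Wilson intervals) that overlaps an exon of a protein-coding gene, a processed pseudogene, or either, with the basal lists in pale and the swim lists in full colour, blue for Des+/+ and red for Des-/-. The Des+/+ swim bar reaches 26.0% for either class and the other 3 lists lie between 6.90% and 10.8%.

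The deposited annotation classes gave the same direction after swimming. With a promoter taken as 3 kb from a transcription start, 118 Des+/+ members (19.4%, 16.5 to 22.8) and 33 Des-/- members (6.51%, 4.67 to 9.0) were in exons or untranslated regions. In basal mice these classes were more frequent in Des-/- (10.7% against 4.55%, a difference of 6.16 points, 1.54 to 9.40), where the gene-model exon share differed by 1.14 points (-3.74 to 4.55). Promoters held 13.8% (11.3 to 16.8) and 8.68% (6.53 to 11.5), and introns 16.5% (13.7 to 19.6) and 19.1% (15.9 to 22.8). Intergenic sequence held 50.2% (46.3 to 54.2) of Des+/+ members and 65.7% (61.4 to 69.7) of Des-/- members, a difference of 15.4 points (9.63 to 21.1). In basal mice the intergenic difference was -4.05 points (-11.8 to 4.09). When exon and processed pseudogene members were left out, a choice made after seeing the data, the swim difference was 2.62 points (-3.33 to 8.56).

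Distance to the nearest transcription start was described over all members and within classes. The median distance was 38.8 kb (28.1 to 49.1) in Des+/+ and 48.8 kb (38.8 to 62.3) in Des-/-, with overlapping intervals. Within 10 kb of a start lay 25.5% and 20.7% of members, within 50 kb 54.2% and 50.1%, and within 500 kb 94.4% and 94.1%. Over 100 kb away lay 34.1% (30.4 to 38.0) and 37.5% (33.4 to 41.8). Among intergenic members the medians were 96.9 kb (70.1 to 123) and 94.3 kb (71.0 to 113). Among intron members they were 42.1 kb (21.6 to 57.5) and 19.7 kb (14.7 to 38.7), a lower median in Des-/- with overlapping intervals. The difference in the share within 3 kb was -5.16 points (-8.83 to -1.41) over all members. It was -7.90 points (-12.2 to -3.63) without the deposited exon and untranslated region classes and 0.0981 points (-3.22 to 3.38) without gene-model exon and processed pseudogene members.

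Members were unevenly spread over the chromosomes. There were 2.23 members per 10 Mb in Des+/+ and 1.86 in Des-/-, and 16 of 21 chromosomes were denser in Des+/+. The 5 chromosomes with most members were 4, 12, 5, X and 7 in Des+/+, with 44.0% of members on 27.3% of the genome. In Des-/- they were X, 7, 5, 12 and 13, with 53.3% on 26.0%. The densest chromosome was 12 in both, with 4.74 and 4.41 members per 10 Mb. Chromosome 5 had 54 members in each list.

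The share of the list on a chromosome differed between the 2 lists, with an interval that excludes 0, on 5 chromosomes. Chromosome 7 held 44 Des+/+ members (7.25%) and 62 Des-/- members (12.2%), a difference of 4.98 points (1.5 to 8.60). Chromosome X held 49 (8.07%) and 65 (12.8%), a difference of 4.75 points (1.16 to 8.47). Chromosome 4 went the other way, with 63 (10.4%) and 34 (6.71%), a difference of -3.67 points (-6.94 to -0.340). Chromosomes 15 and 19 held 19 and 13 Des+/+ members but 5 and 3 Des-/- members. With 21 chromosomes examined, the intervals are not adjusted for their number. They also count neighbouring members as independent, though many lay in a single gene cluster. On chromosome 7, a vomeronasal receptor cluster held 25 Des+/+ and 45 Des-/- members. On X, Btbd35f genes held 22 and 37 in a larger cluster and 10 and 17 in another. On chromosome 4, a zinc finger cluster held 51 and 27. Differences in share without these clusters were not computed. Mice of either sex could be used, and the make-up of each pool is not given in the sources used here. Chromosome Y held 5 Des+/+ and 2 Des-/- members. In basal mice X held 0 of 176 Des+/+ members, which allows a share of up to 2.14%, and 8.28% of Des-/- members. The order of chromosomes by density therefore differed between conditions as well as between genotypes.

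**Figure D3:**
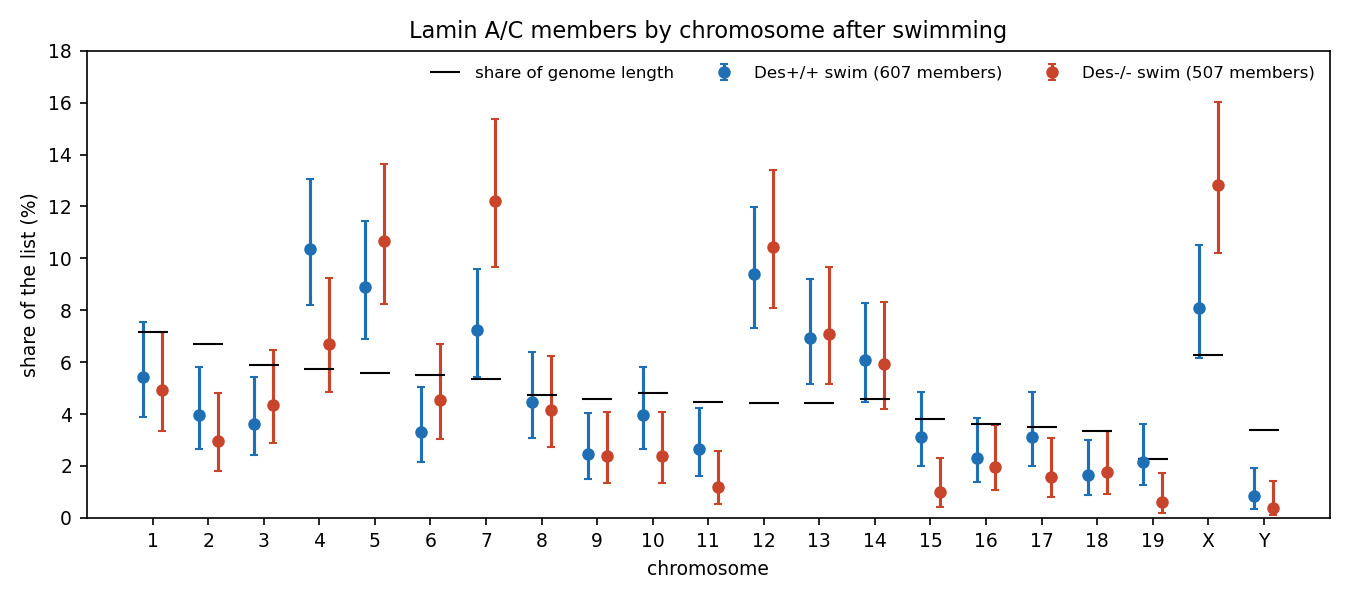
Share of each swim list on each chromosome (circles, percent of members, with 95% Wilson intervals), Des+/+ in blue and Des-/- in red, and the chromosome's share of genome length as a black dash. Chromosomes 5, 7, 12 and 13 lie above their share of the genome in both lists, with intervals that exclude it. Chromosome 4 lies above it in Des+/+ (10.4%) with an interval that in Des-/- includes it (6.71%). Chromosomes 7 and X are higher in Des-/- (12.2% and 12.8%) than in Des+/+ (7.25% and 8.07%).

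Members lay in tight runs of neighbours. Another member of the same list lay within 1 Mb for 62.6% (58.7 to 66.4) of Des+/+ members and 66.7% (62.5 to 70.6) of Des-/- members. The median gap to the nearest neighbour was 185 kb and 35.3 kb. Runs of at least 10 members with gaps of at most 1 Mb numbered 9 in Des+/+ and 10 in Des-/-. They held 37.2% (33.5 to 41.1) of Des+/+ members and 52.5% (48.1 to 56.8) of Des-/- members, a difference of 15.2 points (9.38 to 21). With 1 member kept per nearest gene, the runs held 6.78% and 12.7%, and 38.7% and 35.0% of members had a neighbour, so several members by the same gene account for part of the clustering.

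In the 2 lists joined, 12 stretches held at least 10 members each. They covered 23.0 Mb, which is 0.844% of the genome, and held 254 Des+/+ members (41.8%) and 273 Des-/- members (53.8%). In each stretch at least 72.2% of the members had a near-copy of their summit within 1 Mb. The smallest stretch, over the neighbouring and partly near-identical genes Myh6 and Myh7 on chromosome 14, had 10 Des+/+ members and 1 Des-/- member, and reads that fit both genes could be split between them. The largest, on chromosome 12 at chr12:112836375-116747235, had 43 and 38 members, mostly nearest to Mir6388, and 1 of them lay on the coding exon of Ighv1-55, a variable segment of the immunoglobulin heavy chain. The second, on chromosome 4, had 51 and 27 members among zinc finger genes (Zfp982, Zfp981, Zfp534, Zfp600, Rex2). The Speer4 cluster on chromosome 5 had 31 and 41 members in 0.842 Mb. Vomeronasal receptor genes (Vmn2r32, Vmn2r44, Vmn2r49) on chromosome 7, which encode pheromone receptors, had 25 and 45. Btbd35f genes on chromosome X had 22 and 37 in the larger stretch and 10 and 17 in another. The stretches on chromosomes 7 and 5 and the larger of those on X thus held a larger share in Des-/- (differences in share of 4.76, 2.98 and 3.67 points), with intervals above 0. The chromosome 4 and Myh6 stretches held a larger share in Des+/+ (-3.08 and -1.45 points). The 12 stretches were picked from these same lists. Their intervals count neighbouring members as independent and are not adjusted for the number of stretches.

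**Figure D4:**
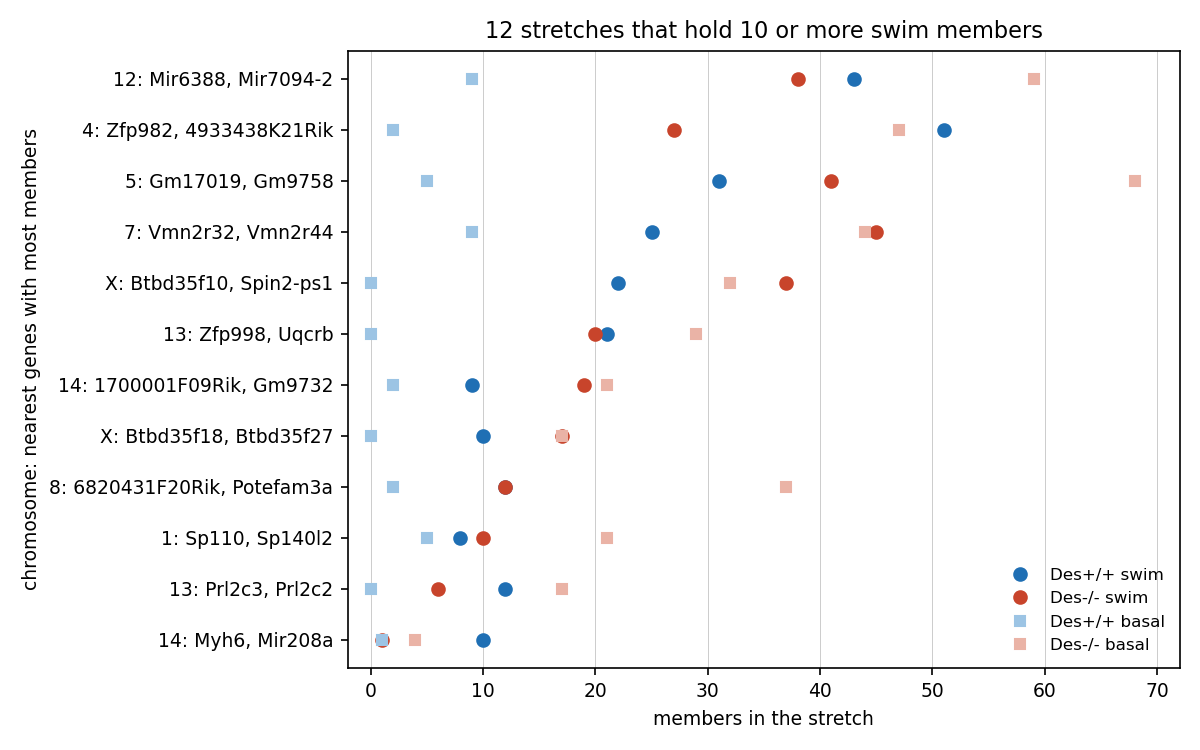
Number of members in each of the 12 stretches that hold at least 10 swim members, labelled by chromosome and leading nearest genes, with circles for the swim lists, squares for the basal lists, blue for Des+/+ and red for Des-/- (where points coincide, as the swim circles at 12 on chromosome 8, the later drawn hides the other). Des-/- swim holds 45 members against 25 at Vmn2r32, Des+/+ swim holds 51 against 27 at Zfp982, and Des+/+ basal holds at most 9 in any stretch.

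The other stretches were smaller. Zfp998 and Uqcrb on chromosome 13 had 21 and 20 members. The 1700001F09Rik locus on chromosome 14 had 9 and 19, with an interval of the difference above 0 (0.393 to 4.41 points). The 6820431F20Rik and Potefam3 locus on chromosome 8 had 12 and 12. The Sp110 and Sp140 locus on chromosome 1, genes of nuclear body proteins of immune cells, had 8 and 10. The prolactin family genes Prl2c3, Prl2c2 and Prl2c4 on chromosome 13 had 12 and 6. In basal mice the same 12 stretches held 35 of 176 Des+/+ members and 396 of 785 Des-/- members.

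Near-copies were common throughout the lists. The 100 bases around the summit matched the genome only once in 26.4% (23.0 to 30) of Des+/+ members and 20.5% (17.2 to 24.2) of Des-/- members, while 96.4% and 96.3% of sampled H3K27Ac peaks of the same groups did. A match within 1 Mb was present for 54.5% (50.6 to 58.5) of Des+/+ members and 70.6% (66.5 to 74.4) of Des-/- members, against 1.71% and 2.01% of the H3K27Ac peaks. Among members with a single match, 160 in Des+/+ and 104 in Des-/-, a neighbour within 1 Mb was present for 25.0% (18.9 to 32.2) and 13.5% (8.19 to 21.3), and no run reached 10 members. Median soft-masked sequence, which is repeat sequence as marked in the genome file, was 21.5% (17.5 to 28.2) in Des+/+ and 31.5% (26.1 to 40) in Des-/-. Median GC content was 42.0% in each, close to the genome's 41.7%.

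The nearest genes overlapped in part. Members were nearest to 398 genes in Des+/+ and 283 in Des-/-, of which 100 were in both lists (25.1% and 35.3% of each list). Of the 581 genes in either list, 51.3% were in Des+/+ only and 31.5% in Des-/- only. Mir6388 had most members in each, 35 in Des+/+ with heights of 8 to 16 and 26 in Des-/- with heights of 8 to 17. Btbd35f10 followed with 9 and 22. Vmn2r32 had 1 Des+/+ and 10 Des-/- members, and 1700095A21Rik had 7 and 1. Zfp998 (8 and 9), Vmn2r44 (6 and 4), Zfp982 (7 and 4), 4933438K21Rik (7 and 3), Prl2c2 (5 and 2), Uqcrb (5 and 4) and Myh6 (5 and 1) were the other leading genes of Des+/+. Spin2-ps1 (4 in Des+/+ and 7 in Des-/-), 6820431F20Rik (3 and 6), Mir7094-2 (4 and 6), 1700001F09Rik (4 and 6), Gm10354 (3 and 5) and Speer4d (3 and 5) were those of Des-/-. Each leading gene named here thus had at least 1 member in the other list.

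The tallest members without a partner differed in kind. In Des+/+ swim they stood near Skint10 (38), over Gm13456 near Lrp1b (35 and 25), near Cox7c (34), near Atp6v1h (32) and over Mb (29). Others stood near Speer4d and Gm17019 (27 each), near 6820431F20Rik (23) and in Dock2 (23). Those near Skint10, Cox7c, Atp6v1h and 6820431F20Rik had between 22304 and 44575 matches in the genome, and their nearest genes are those of the copy to which the reads were assigned. The member near Gm17019 overlapped a Des-/- peak that was left out for its input. In Des-/- swim the 10 tallest had heights of 20 to 24. The exception to the Speer4 cluster was a member near Kcnh5, with a height of 22, and the other 9 lay by Gm21083, Gm10354, Speer4d, Speer4e and 4930572O03Rik.

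Gene lists for heart function outside the contractile apparatus held few nearest genes of members. Of 40 mitochondrial metabolism genes, matched by symbol, 4 (Cox4i1, Mb, Slc25a4 and Vdac1) had 5 Des+/+ members (0.824%, 0.352 to 1.91) and no Des-/- member. This count misses the Des+/+ exon member of Atp5b, whose nearest gene is given as Atp5f1b, another symbol of the same gene. Over all genes, only 581 were nearest to a member of either list. Of 42 cardiac development genes, 22 genes of calcium handling and excitation and 21 genes of the nuclear lamina and LINC complex, none had the start nearest to a member in either list, with Gata4, Mef2c and Tbx5 left out by the rule. The exon members over Atp2a2 and Pln lie nearer to the starts of Anapc7 and Cep85l. A count of 0 of 607 members allows a share of up to 0.629%, and 0 of 507 up to 0.752%. Neuronal adhesion and synapse genes, long genes in gene-poor regions, had 22 Des+/+ members (3.62%, 2.41 to 5.43) and 15 Des-/- members (2.96%, 1.80 to 4.82), with 10 genes in each list only and Cntnap5a, Slitrk5 and Slitrk6 in both. At 8 reads stood 14 of the 22 and 12 of the 15. The Des+/+ count includes members over pseudogenes near Lrp1b. These were Gm13456 (35 and 25) and Gm13461 (11), which best matched transcripts of Eef1a1 and Ran. Olfactory and vomeronasal receptor genes had 35 (5.77%, 4.17 to 7.91) and 50 (9.86%, 7.56 to 12.8) members, a difference of 4.10 points (0.948 to 7.41). Predicted and RIKEN genes had 108 (17.8%) and 115 (22.7%), and microRNA genes 54 (8.90%) and 37 (7.30%).

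Acetylated chromatin lay near a minority of members. The number of H3K27Ac peaks was 11157 in Des+/+ swim and 10407 in Des-/- swim. Of the lamin A/C members, 15 (2.47%, 1.5 to 4.04) and 13 (2.56%, 1.5 to 4.34) overlapped an H3K27Ac peak of the same group. Within 100 kb of one lay 34.3% (30.6 to 38.1) of Des+/+ members and 27.8% (24.1 to 31.9) of Des-/- members, a difference of -6.46 points (-11.8 to -0.989). Without the limit on input it was -4.11 points (-9.48 to 1.34), and at a minimum height of 10 reads -1.04 points (-10.8 to 8.80). Promoter members were nearest to acetylation, with 45.2% (35.0 to 55.9) and 29.5% (18.2 to 44.2) within 10 kb. Of intergenic members 4.92% (3.00 to 7.95) and 7.81% (5.38 to 11.2) were that close. Without exon and processed pseudogene members the difference within 100 kb was 2.24 points (-3.34 to 7.78). Over Myl3 and Myh7 a Des+/+ member lay 0.407 kb and 0.799 kb from an H3K27Ac peak, while over Myh6 the distances ran from 11.1 kb to 21.7 kb.

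Leaving out exon and processed pseudogene members changed some genotype differences more than others. The share in runs of 10 or more still differed, by 9.92 points (3.46 to 16.3), as did the shares on chromosomes X, 7 and 4, by 4.43 (0.311 to 8.54), 4.31 (0.545 to 8.10) and -6.12 points (-9.98 to -2.36). The differences in intergenic share, in nearness to a start, in nearness to acetylation and in near-copies within 1 Mb (5.20 points, -0.727 to 11.1) then had intervals that include 0. Among members with 1 match in the genome, which are fewer, no run reached 10 members, and the shares on X, 7 and 4 had differences with intervals that include 0, of 0.337 (-2.60 to 4.65), 3.89 (-0.774 to 10.3) and -1.15 points (-6.28 to 4.98). With a gap limit of 100 kb the share in runs differed by 4.06 points (-0.853 to 9.02).

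**Figure D5:**
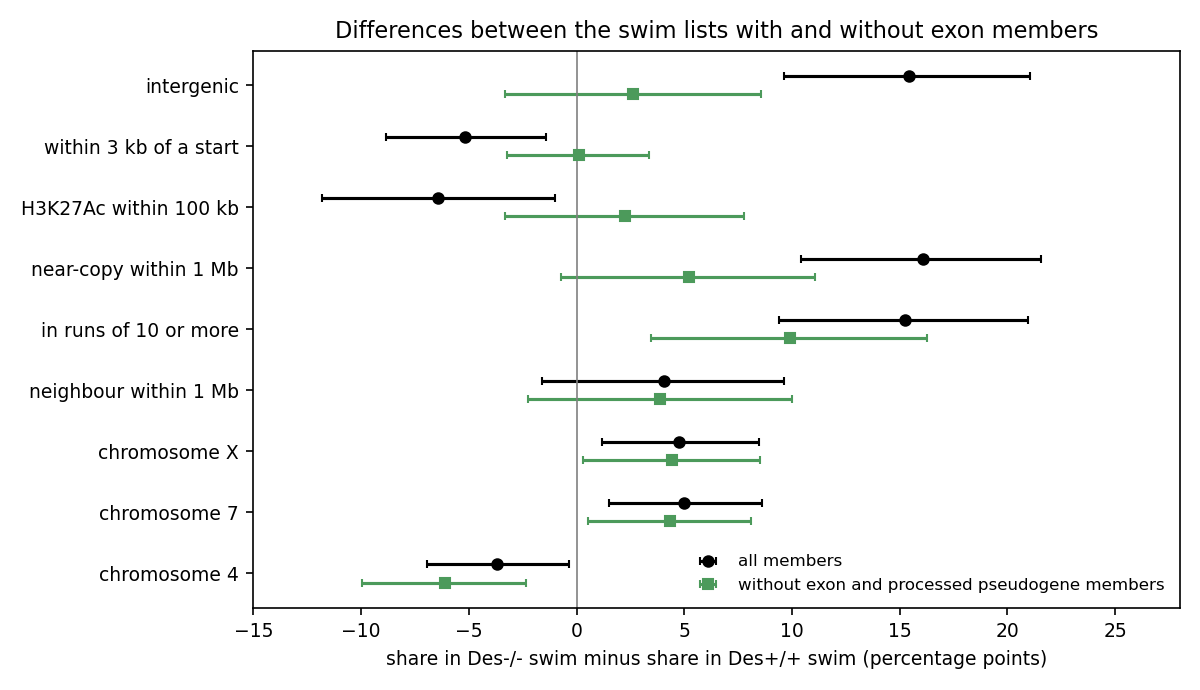
Difference in share between the swim lists (Des-/- minus Des+/+, percentage points, with 95% Newcombe intervals) for 9 features, over all members (black circles) and without members over exons and processed pseudogenes (green squares). The intergenic difference moves from 15.4 to 2.62 points and the start-site and acetylation differences move to intervals that include 0, while the differences on chromosomes X, 7 and 4 have intervals without 0 in both. The class left out was chosen after seeing the data.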

How the data were processed

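Lamin A/C ChIP-seq peak lists of adult cardiomyocytes were analysed for Des+/+ swim and Des-/- swim, with the basal lamin A/C and swim H3K27Ac lists beside them. Per the labels, the authors aligned single-end reads to GRCm38 (mm10) with Bowtie2 2.4.4 and SAMtools 1.13, called peaks in each library against its input, and annotated them with ChIPseeker 1.36.0. Default Bowtie2 reports 1 position for a read that fits several. The deposited heights in the precipitate and in the input are coverage signal (overlapping reads), with a deposited p-value per peak (used only to break ties) and a deposited score column of bp to the nearest start. Duplicate removal, read extension and input scaling are not given in the sources used here. The deposited fold changes and false discovery rates were not used.

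Members were peaks with an input height under 10 and a nearest gene other than Gata4, Neil2, Mef2c or Tbx5. The members and gene lists were chosen with earlier results of these data known. Overlap was at least 1 bp, and promoters lay within 3 kb of a start. Exons and processed pseudogenes came from GENCODE M21. Near-copies were BLAST+ 2.17.0 matches in GRCm38 of the 100 bases around a summit, at 90% identity and 90% coverage, for every lamin A/C member and every 10th H3K27Ac peak. Intervals were Wilson (shares), Newcombe (differences of shares) or order-statistic (medians), computed with Python 3.11.15 and scipy 1.17.1. There was 1 library per group and no test. List length, overlap, chromosome shares, distance, class, clustering, acetylation, composition, near-copies and 2 gene lists were recomputed with other limits on height, input, gaps, promoters or shared peaks, or without classes of members, as was the gene-model share (chosen after seeing the data). The stretches, the nearest-gene overlap and the heights of pairs were not. Depth per library is unknown.

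Named genes were, for each list, the 10 nearest genes with most members, the 10 highest members without a partner and the 5 runs with most nearest genes, plus the 10 shared pairs with the greatest lower height and every gene of the contraction, calcium, development, mitochondrial and lamina lists with a member. Genes named for exons, pseudogenes and stretches beyond this were chosen after their values were seen.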

Additional observations from a re-analysis of the deposited data

Results flagged for a closer look

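Several genotype differences had opposite signs in basal and swum mice, each from 1 library per group, and the difference between conditions was not tested. The number of members in Des-/- minus Des+/+ was 609 in basal mice and -100 after swimming. The share of members over exons of protein-coding genes differed by 1.14 points in basal mice and by -10.9 points after swimming. For processed pseudogenes the differences were 2.30 (-0.797 to 4.03) and -8.27 points (-11.1 to -5.62). For intergenic members they were -4.05 (-11.8 to 4.09) and 15.4 points (9.63 to 21.1).

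Tall peaks also lay outside the compared members. The highest peak left out over Gata4, a cardiac transcription factor gene, reached 257 reads in Des+/+ swim and 243 in Des-/- swim, while the input over Gata4 peaks was at most 4 and 3 reads. In all, 17 and 9 peaks were left out over Gata4, Neil2, Mef2c and Tbx5. The highest peak left out for its input had a height of 199 over an input of 153 in Des+/+ swim, and of 237 over an input of 181 in Des-/- swim.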

How the results depend on the processing

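Of 197 recomputed values over 23 results, 144 stayed within the 95% interval of the reported value (counts within 1.5 times) and 53 did not, and 8 differences turned sign. Of 113 recomputed values of the 14 differences whose interval excluded 0, 30 had an interval that included it. These include X with an equal number of the highest peaks (3.16, -0.749 to 7.08), chromosomes 7 and 4 at a minimum height of 10 reads (2.10, -2.63 to 7.64, and -2.76, -9.31 to 4.38), chromosome 4 over autosomes only (-3.67, -7.29 to 0.0724) and soft-masked sequence without deposited exon and untranslated region peaks (2.07, -8.30 to 12.7). All differences are Des-/- minus Des+/+, and shares are in percentage points. Leaving out the members over gene-model exons and processed pseudogenes (chosen after seeing the data) gave a member difference of 23, denser chromosomes in Des+/+ 9, median distance to a start -7.67 kb, share within 3 kb 0.0981, intergenic 2.62, exon and untranslated region -0.999, acetylation within 100 kb 2.24, median GC 1.09, median soft-masked -4.39, near-copies 5.20 and contraction genes 0. Leaving out deposited exon and untranslated region peaks gave a member difference of -15, 10 denser chromosomes, 7.88 for intergenic, 9.56 for near-copies and -8.51 for gene-model exons or processed pseudogenes. A minimum height of 10 reads left 245 and 162 members, of which 90.2% and 85.2% had no partner, with differences of 9.51 on X, -9.54 within 3 kb, 26.7 intergenic, -23.6 exon and untranslated region, 21.3 with a neighbour, 22.3 in runs, -1.79 in GC, 28.3 in near-copies, -4.90 in contraction genes and -33.2 in gene-model exons or processed pseudogenes. Members with 1 genome match (also chosen after seeing the data) numbered 160 and 104, with 5 pairs and 96.9% and 95.2% without a partner, and differences of 0.337 on X, 38.2 kb in median distance, -11.5 with a neighbour, 0 in runs, -2.94 in soft-masked sequence and -6.88 in contraction genes. Without peaks of input height 5 or more, 20 pairs remained, and 96.5% and 95.7% had no partner. With a gap of at most 10 kb taken as shared there were 164 pairs, and 73.0% and 67.3% had none. With a near-copy in the other list also taken as shared (chosen after seeing the data) the shares were 79.9% and 79.7%. A gap limit of 100 kb gave 11.1 with a neighbour and 4.06 in runs, and 1 peak per nearest gene gave -3.71 and 5.94. Apart from the choices whose own construction leaves out exons or members, the cause was not tested. Near-copies and gene-model classes were not computed here for peaks outside the members, so they have no value without the input limit or with the left-out genes kept. No paired analysis was possible because each group has 1 library.

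Each list is 1 library of pooled chromatin, so every difference mixes genotype with library. Depth is unknown, and 43.8% and 49.7% of the members stand at the minimum height, where counting error can decide a call.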
